A study of Homo sapiens with 6 samples.

Results

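The CASP1 locus genes are the inflammatory caspase genes CASP1, CASP4 and CASP5 with the small CARD genes CARD16, CARD17 and CARD18, which lie side by side on chromosome 11. Every probe set (a group of short probes that reads 1 transcript region) whose gene symbol is or includes 1 of these 6 genes was taken. This gave 26 of the 49293 probe sets tested, for 6 of 18132 genes. CARD17 carries its current symbol CARD17P in the gene table, as a transcribed pseudogene, and was matched by its gene identifier. CASP1 had 9 probe sets of its own, CASP4 had 7, CASP5 and CARD17P had 3 each, CARD16 had 2 and CARD18 had 1. The last probe set was shared by CASP1 and CARD16.

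The arrays are labelled as RNA of NCI-H929, a human multiple myeloma line grown from malignant plasma cells. Most plasma cell markers, given below, were not above background. The 3 arrays called PRMT5_down are of cells with a lentivirus against PRMT5, an enzyme that places symmetric dimethyl marks on arginines. The 3 called control are of cells with a control lentivirus. Transduced cells were selected with puromycin and all were harvested at one time, with replicate numbers 1 to 3 in each group. The same protocol also speaks of normal NCI-H929 cells as the comparison. The titles name the construct a sponge and the treatment protocol a short hairpin RNA in pLKO.1, and the control insert is not described. The labels do not tell whether replicates are separate cultures, and each p-value therefore measures the spread of these arrays alone, which may be technical. The study asked which genes may be targets of PRMT5.

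Caspase-1 is a protease kept inactive until a danger-sensing protein complex, the inflammasome, brings its molecules together through their caspase recruitment domain, or CARD. It then cuts the precursors of interleukin-1 beta and interleukin-18 and the pore former gasdermin D, which opens the membrane in the lytic death called pyroptosis. Caspase-4 and caspase-5 bind bacterial lipopolysaccharide in the cytosol and cut gasdermin D directly. CARD16, CARD17 and CARD18 are short relatives of the CASP1 CARD without a protease part and are known as decoys that bind caspase-1 and hold it back. In blood the locus is best known from monocytes and macrophages.

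The targeted gene was read first. Across replicates 1 to 3 the PRMT5 signal (log2) was 8.63, 9.65 and 9.37 in PRMT5_down against 9.93, 10.35 and 10.30 in the controls. The groups did not overlap, and PRMT5_down replicate 2 kept the most PRMT5 signal. The log2 difference was -0.98 (SE 0.28), with p = 0.1 in a two-sided exact permutation test over arrays, which is the lowest value this design can reach. Over all probe sets it did not pass limma (adjusted p = 1 as planned and 0.26 with the replicate number as a block). The median signal of an array was 5.29 to 5.32, and the number of arrays limits the precision. A probe set is called above background on an array when its signal exceeds the 95th percentile of 333 olfactory receptor genes there, which was 4.89 to 5.01. By that rule 7 of the 26 locus probe sets were above background on all 6 arrays, 15 on none and 4 on some, against 50.6% of all probe sets on all 6 and 42.2% on none.

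**Figure D1:**
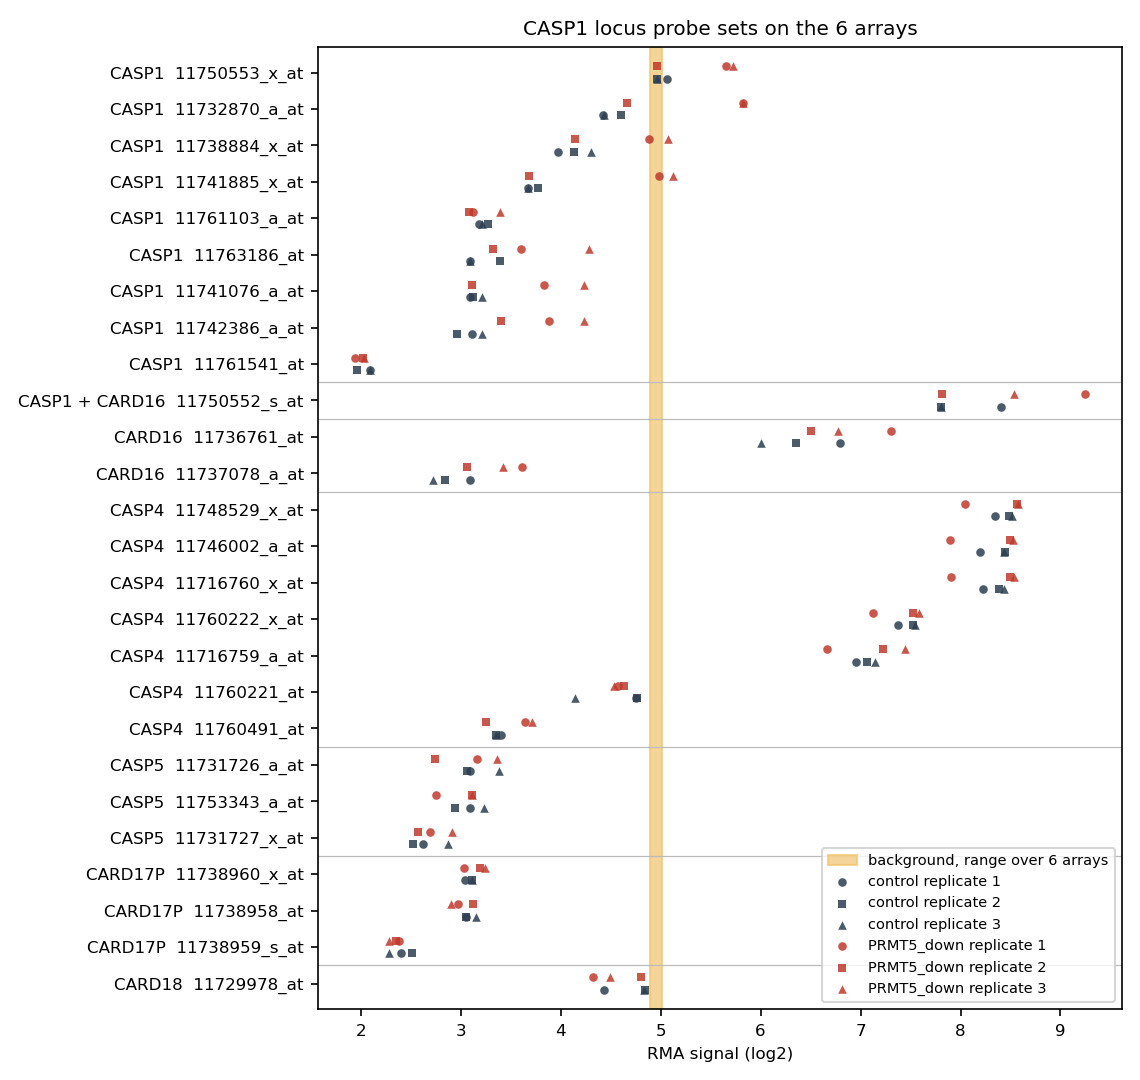
RMA signal (log2) of the 26 CASP1 locus probe sets, 1 line per probe set, on the 6 arrays: red for PRMT5_down, dark for control, with circles, squares and triangles for replicates 1, 2 and 3. The band is the background of 4.89 to 5.01, with the shared CASP1 and CARD16 probe set, 1 CARD16 and 5 CASP4 probe sets to its right on every array.

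Most CASP1 probe sets read higher in PRMT5_down replicates 1 and 3 than in any control, and in replicate 2 most lay among the controls. Of the 9, which were designed on 9 different transcript records, 5 were above background on no array, and none was on all 6. In PRMT5_down replicate 1, 7 read above all controls and 2 below all of them. In replicate 3, 8 read above all controls and 1 within their range. In PRMT5_down replicate 2 only 2 did, 6 lay within the control range and 1 below it. The share of all probe sets above all controls was not counted for single arrays, so the counts per array cannot be called unusual. A share was counted, after the values were seen, for replicates 1 and 3 above all controls with replicate 2 not. This was found for 5 of the 9 CASP1 probe sets, 1 of the 7 CASP4 ones and 2.89% of all. Of 7 CASP4 probe sets, 1, 4 and 6 read above all controls in PRMT5_down replicates 1, 2 and 3. In replicate 1, 5 of these CASP4 probe sets read below all controls. None of the 9 CASP1 probe sets passed the test. In bulk RNA, more cells that carry a transcript and more transcript per cell cannot be told apart.

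The CASP1 probe set that differed most, 11732870_a_at, read 4.42, 4.60 and 4.43 in control replicates 1, 2 and 3. The PRMT5_down arrays of the same numbers read 5.82, 4.66 and 5.82. Replicates 1 and 3 lay above background and replicate 2 just above the controls, so the groups did not overlap. Within replicate numbers 1, 2 and 3 the difference was 1.40, 0.06 and 1.39, measured against controls of which none was above background, so no fold is given. The mean difference was 0.95 (SE 0.32), with a limma adjusted p of 1 as planned and 0.47 with the replicate block. The two-sided exact permutation test over arrays gave p = 0.1.

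A second one, 11741885_x_at, read 3.67, 3.77 and 3.67 in the controls. In PRMT5_down it read 4.98, 3.68 and 5.12. No control was above background here either. PRMT5_down replicate 2 lay inside the control range and replicates 1 and 3 above it, with differences of 1.31, -0.09 and 1.45 from that dim signal. The mean difference was 0.89 (SE 0.38; limma adjusted p = 1 as planned, 0.50 with the replicate block).

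The brightest CASP1 probe set, 11750553_x_at, was above background on 5 arrays. It read 5.06, 4.96 and 4.96 in the controls and 5.65, 4.96 and 5.72 in PRMT5_down. Replicate number 2 had the same value in both groups, and numbers 1 and 3 differed by 0.59 and 0.76. Another, 11738884_x_at, read 3.97, 4.13 and 4.30 in the controls and 4.88, 4.14 and 5.07 in PRMT5_down, above background only in PRMT5_down replicate 3. Again only replicates 1 and 3 stood clear of the controls.

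The probe set 11742386_a_at was the exception in replicate number 2. It read 3.11, 2.96 and 3.21 in the controls and 3.88, 3.40 and 4.23 in PRMT5_down, all under background. Its groups did not overlap, and its differences of 0.77, 0.44 and 1.02 went one way in every number. Its mean difference of 0.74 (SE 0.22) had the lowest adjusted p of the locus with the replicate block (limma adjusted p = 0.29; 1 as planned), and the two-sided exact permutation test over arrays gave p = 0.1. Another pair of dim probe sets differed by 0.74, -0.01 and 1.02 (11741076_a_at) and by 0.51, -0.07 and 1.19 (11763186_at). The remaining pair, 11761103_a_at and 11761541_at, read 1.94 to 3.39 on all arrays and had mean differences of -0.02 and -0.05.

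For the 7 CASP1 probe sets higher in replicate number 1, picked after their values were seen, the SD over 3 arrays was 0.06 to 0.17 in the controls and 0.42 to 0.79 in PRMT5_down. The choice itself favours a wide spread in PRMT5_down. The other CASP1 probe sets had SDs of 0.05 and 0.08 in the controls and 0.17 and 0.05 in PRMT5_down (11761103_a_at and 11761541_at). A wider spread in PRMT5_down was not particular to CASP1. The 5 CASP4 probe sets above background on all 6 arrays had SDs of 0.09 to 0.14 in the controls and 0.25 to 0.40 in PRMT5_down.

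CARD16, the decoy gene beside CASP1, had signal above background on all 6 arrays in 1 of its 2 probe sets, and read higher in PRMT5_down within every replicate number. That probe set, 11736761_at, read 7.30, 6.50 and 6.77 in PRMT5_down against 6.79, 6.35 and 6.00 in the controls, for replicates 1 to 3. With the strictest background percentile tried, 6.84 to 7.03, it was above background only in PRMT5_down replicate 1. The groups overlapped, since control replicate 1 lay above PRMT5_down replicates 2 and 3. Within replicate numbers 1, 2 and 3 the difference was 0.51, 0.15 and 0.77, with a mean of 0.48 (SE 0.27). It did not pass (limma adjusted p = 1 as planned and 0.47 with the replicate block). The dim CARD16 probe set, 11737078_a_at, had differences of 0.52, 0.22 and 0.70 and the same mean of 0.48 (SE 0.17).

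The probe set shared by CASP1 and CARD16, 11750552_s_at, read 8.40, 7.80 and 7.80 in the controls and 9.25, 7.81 and 8.53 in PRMT5_down. Within replicate numbers 1, 2 and 3 it differed by 0.85, 0.01 and 0.73, or 1.80-fold, 1.01-fold and 1.66-fold. Its mean difference was 0.53 (SE 0.38; limma adjusted p = 1 as planned, 0.50 with the replicate block). Control replicate 1 read 0.60 above the mean of the other controls in this probe set and 0.62 above it in the bright CARD16 one. In the brightest CASP1 probe set that step was 0.10. CARD16 resembles the CARD of CASP1, and the signal of a shared probe set cannot be divided between them.

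Number 2 was also the one in which PRMT5 itself differed least, by -0.70 against -1.30 in number 1 and -0.93 in number 3. With 3 numbers no relation between the genes was tested.

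**Figure D2:**
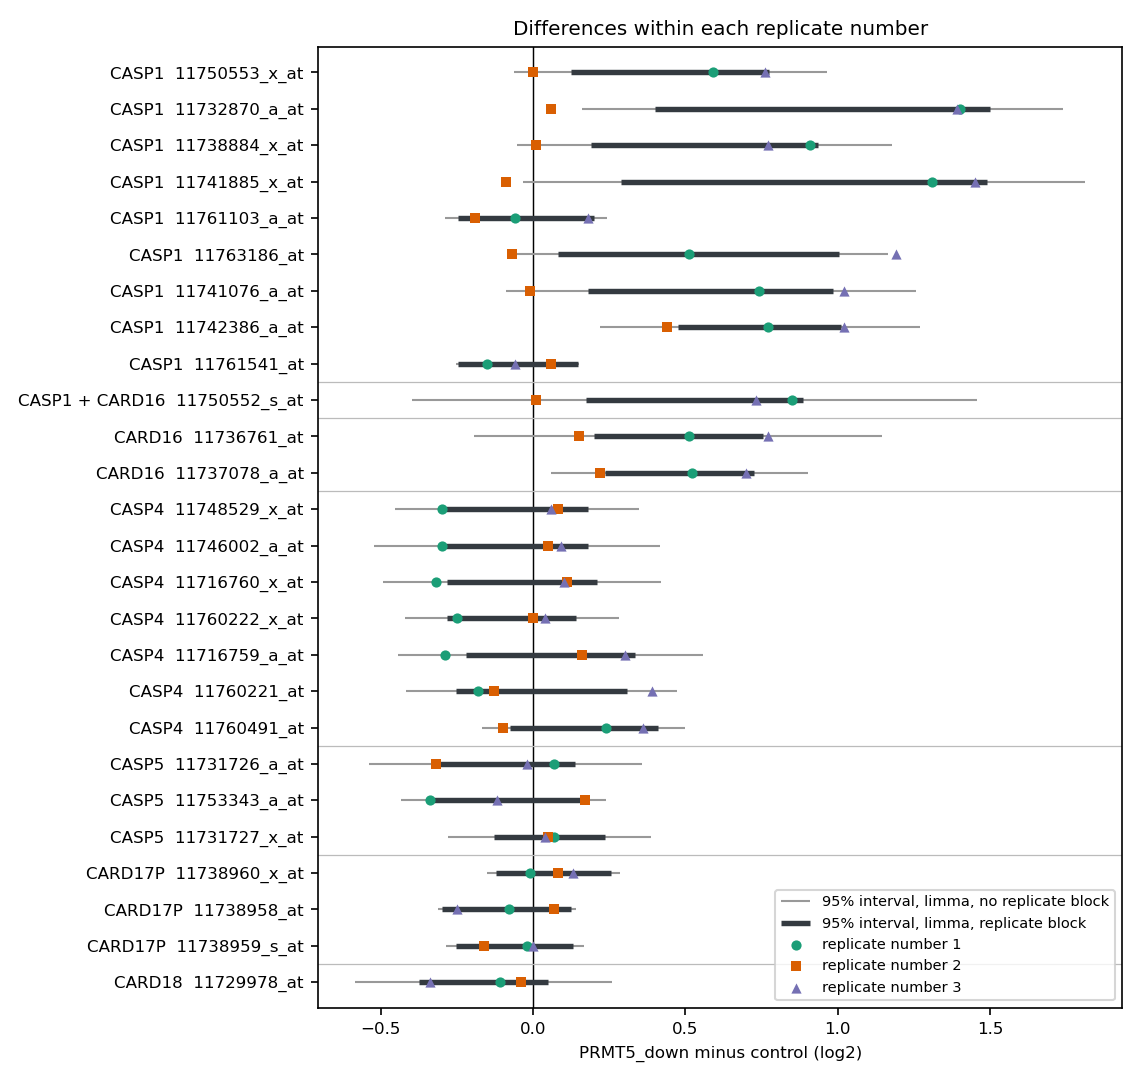
PRMT5_down minus control (log2) of the 26 probe sets within replicate numbers 1, 2 and 3 (circles, squares, triangles), with 95% intervals of the mean difference from limma without (thin) and with (thick) the replicate block. For CASP1, CARD16 and their shared probe set most circles and triangles lie to the right of 0.5 and the squares lower, at 0.44 or less, while CASP4, CASP5, CARD17P and CARD18 lie around 0.

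CASP4, a lipopolysaccharide-sensing caspase, was the only caspase of the locus with probe sets of its own above background on all 6 arrays. The probe set shared by CASP1 and CARD16 was above it on all 6 as well. CASP4 differed little between the groups. Of its 7 probe sets, 5 were above background on all 6 arrays, and their mean differences ran from -0.07 to 0.06. The brightest, 11748529_x_at, read 8.04, 8.56 and 8.57 in PRMT5_down against 8.34, 8.48 and 8.51 in the controls, for replicates 1 to 3. Replicate 1 was the lowest in each group. Its differences within numbers were -0.30, 0.08 and 0.06, and the mean was -0.05 (SE 0.16; limma adjusted p = 1 as planned, 0.90 with the replicate block).

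Replicate 1 was also the lowest of each group in the other 4 bright CASP4 probe sets. All 5 were lower in PRMT5_down within number 1, by -0.32 to -0.25, and at 0.00 to 0.16 and 0.04 to 0.30 within numbers 2 and 3. The 95% intervals of their mean differences together spanned -0.52 to 0.56 as planned and -0.29 to 0.33 with the replicate block. The probe sets largely read the same transcripts and do not count as separate measurements. The dim pair, 11760221_at and 11760491_at, had mean differences of 0.03 and 0.17.

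CASP5, the near copy of CASP4, had no signal above background on any array in any of its 3 probe sets. To show how alike the regions in front of these genes are, the 250 bases before each start site are printed from RefSeq (build GRCh38.p14), for CASP4 and CASP5. Both read 5′ to 3′ on the gene's strand, which is the minus strand, and the capitals mark the longest run that is identical in the alignment of both.
CASP4, chr11:104968575-104968824: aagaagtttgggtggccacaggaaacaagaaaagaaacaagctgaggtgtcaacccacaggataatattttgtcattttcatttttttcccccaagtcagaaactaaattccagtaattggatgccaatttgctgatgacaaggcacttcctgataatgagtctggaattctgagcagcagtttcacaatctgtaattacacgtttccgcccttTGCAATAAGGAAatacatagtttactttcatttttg
CASP5, chr11:105023169-105023418: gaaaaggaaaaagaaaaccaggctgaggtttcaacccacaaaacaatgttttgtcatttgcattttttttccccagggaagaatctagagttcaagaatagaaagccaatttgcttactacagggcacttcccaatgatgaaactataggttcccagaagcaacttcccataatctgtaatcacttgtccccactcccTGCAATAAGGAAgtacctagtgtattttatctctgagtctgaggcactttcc

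In a global alignment 174 of 269 columns were identical, or 64.7%, and the longest identical run had 12 bases. The letters TTCNNNGAA, the core of the site of STAT factors, were searched on both strands. They matched 0 times in the CASP4 window and 1 time in the CASP5 window, and 6.57% of the 35116 RefSeq windows of the same length hold them. The letters TATAAA, the core of the TATA box, matched 0 times in either window, and 10.7% of windows hold them. A match is only a description of the letters.

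The 3 CASP5 probe sets read between 2.52 and 3.38 and had mean differences of -0.10 to 0.05. CARD17P, also known as INCA, read between 2.28 and 3.24 in its 3 probe sets, with mean differences of -0.09 to 0.07. CARD18, also known as ICEBERG, came nearest to background. Its probe set 11729978_at read 4.43, 4.84 and 4.83 in the controls and 4.32, 4.80 and 4.49 in PRMT5_down, a mean difference of -0.16 (SE 0.17). No array of any of these 7 probe sets was above background, so their differences describe dim signal only.

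The locus was set beside all probe sets. No probe set passed the planned test (limma adjusted p under 0.05 for 0 of 26 and for 0% of all 49293) or the one with the replicate block (0 of 26 and 0%). At an unadjusted p under 0.05 the planned fit had 3 of the 26 higher and 0 lower, where 0.475% of all probe sets were higher and 0.471% lower (0.945% in either direction). With the replicate block 10 were higher and 0 lower, where 5.08% of all were higher and 3.48% lower (8.56% in either direction). These 10 are 7 CASP1 probe sets, both CARD16 ones and the shared one. They read 1 or 2 neighbouring genes on the same 6 arrays and are not 10 separate observations. The blocked count was 2 without pair 1, 2 without pair 3 and 11 without pair 2. Leaving out PRMT5_down replicate 2 raised the planned count from 3 to 10, and leaving out PRMT5_down replicate 1 or 3 or control replicate 2 or 3 left 1.

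The groups did not overlap, with PRMT5_down higher, for 2 of the 26, against 1.49% of all probe sets. They did not overlap with PRMT5_down lower for 0, against 2.43%. In all 3 replicate numbers 7 of the 26 were higher, against 12.5%, and 1 was lower, against 14.3%. A difference of 0.5 or more in both numbers 1 and 3, a pattern noticed in these values and then counted, was seen for the same 10 probe sets and for 0.525% of all, or 0.545% of those above background on all 6 arrays and 0.154% of those above it on none. PRMT5_down replicates 1 and 3 above all controls and replicate 2 not, also counted after the values were seen, was found for 8 of the 26 (5 CASP1, 1 CARD16, the shared and 1 CASP4) and for 2.89% of all. Over the 12 CASP1, CARD16 and shared probe sets the median difference was 0.67, 0.01 and 0.77 in numbers 1, 2 and 3. Over all 49293 it was -0.02, 0.00 and 0.00.

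**Figure D3:**
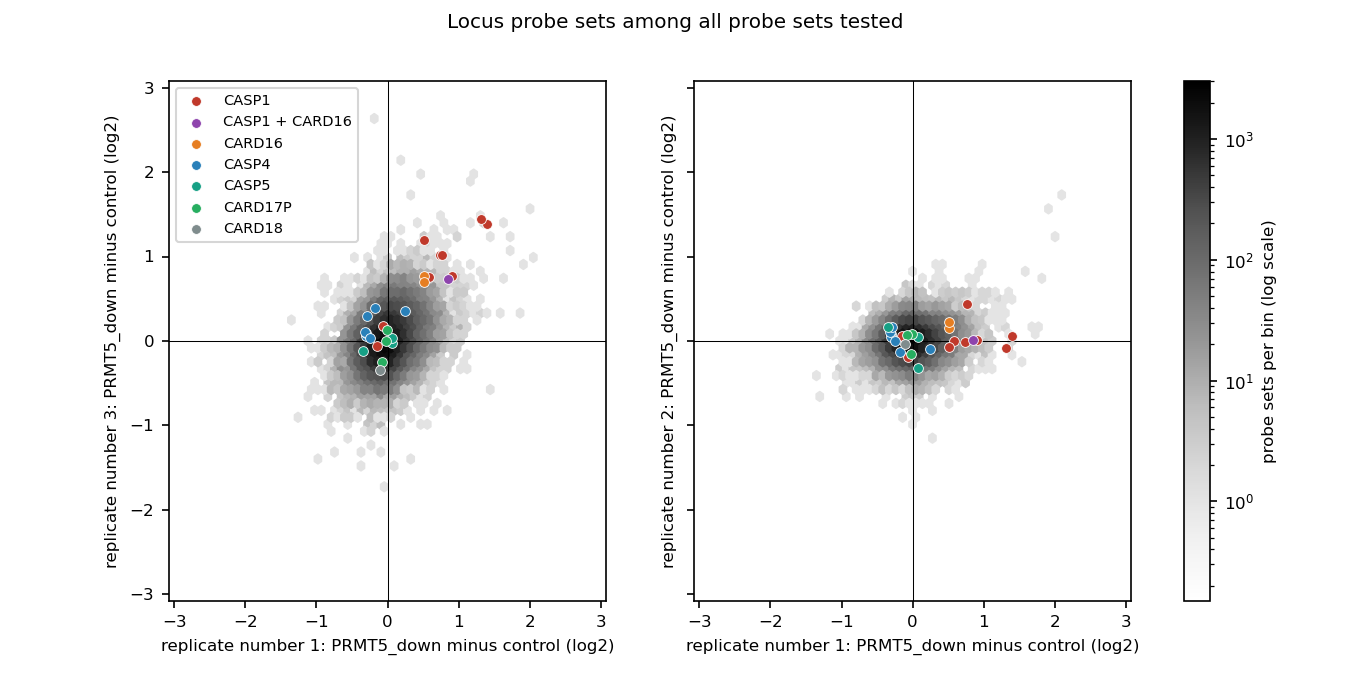
Differences between PRMT5_down and control (log2) of all 49293 probe sets in grey bins (log colour scale), number 1 against number 3 on the left and number 1 against number 2 on the right, with the locus probe sets in colour. The 10 CASP1, CARD16 and shared probe sets at 0.5 or more in numbers 1 and 3 lie at the upper right on the left and at -0.09 to 0.44 in number 2 on the right.

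Because RMA evens out the arrays, the change of 1 gene against another on the same array was also read. The distance of the shared CASP1 and CARD16 probe set from the brightest CASP4 probe set differed between the groups by 1.15, -0.07 and 0.67 in replicate numbers 1, 2 and 3, a mean of 0.58. The two-sided exact permutation test over arrays gave p = 0.7, and that over the 3 pairs p = 0.5, where 0.25 is the smallest possible. For the bright CARD16 probe set against CASP4 it differed by 0.81, 0.07 and 0.71 (two-sided exact permutation p = 0.4 over arrays and 0.25 over pairs). CARD16 and the brightest CASP1 probe set had distances that differed by -0.08, 0.15 and 0.01 (two-sided exact permutation p = 0.9 over arrays). None had a p under 0.05, but neither exact test could have reached that, since the smallest possible p over arrays is 0.1. These p-values therefore decide nothing.

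The genes that act with caspase-1 were low or differed little. Of 12 measured sensors and adaptors, 3 were above background on all 6 arrays and 6 on none. Among them 5 were higher and 7 lower, 0 passed limma and the median difference was -0.08, beside -0.02 over 18132 genes. PYCARD, the adaptor that links sensors to caspase-1, was above background on 1 array and differed by -0.10 (SE 0.13). NLRP3, the best known sensor, was also above background on 1 array and differed by 0.07 (SE 0.11). NLRP1, a sensor that activates caspase-1 through its own CARD, read 6.37, 7.02 and 6.36 in the controls and 6.10, 6.54 and 6.22 in PRMT5_down. It was lower in each replicate number, by -0.27, -0.48 and -0.14, and the groups overlapped. Its mean difference of -0.30 (SE 0.22) did not pass (limma adjusted p = 1 as planned, 0.51 with the replicate block), and was -0.08 without control replicate 2. The DNA sensor IFI16 differed by 0.17 (SE 0.23).

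Of 9 measured substrates and executioners, 4 were above background on all 6 arrays, 3 were higher, 6 lower and 0 called, with a median of -0.02. GSDMD, which encodes gasdermin D, was just above background on every array, at 5.11, 5.21 and 5.57 in the controls and 5.02, 5.14 and 5.30 in PRMT5_down. Its difference was -0.14 (SE 0.15). IL1B was above background on no array and differed by -0.12 (SE 0.08). IL18 was above it on all, at 7.28, 6.32 and 6.54 in the controls and 7.23, 6.52 and 6.85 in PRMT5_down, a difference of 0.15 (SE 0.30). Of 9 measured genes on a list of restrainers and other regulators, GBP1 and CARD8 among them, 4 were above background on all 6 arrays. Among the 9, 3 were higher, 6 lower and 0 called. CARD8, a sensor relative and regulator of caspase-1, differed by -0.04 (SE 0.19), and the protease inhibitor genes SERPINB9 and SERPINB1 by 0.10 (SE 0.24) and -0.04 (SE 0.12).

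All 8 measured regulators known to act on transcription of inflammatory caspase genes were above background on every array. Of these 3 were higher, 5 lower and 0 called, with a median of -0.04. IRF1 differed by -0.11 (SE 0.19), with -0.07, -0.11 and -0.16 in replicate numbers 1, 2 and 3. IRF2 differed by 0.23 (SE 0.23), with 0.13, 0.11 and 0.46. The myeloid factor SPI1 differed by -0.06 (SE 0.14), and TP73 by -0.17 (SE 0.14). None of these genes had the size of the CASP1 differences in numbers 1 and 3.

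Caspases outside the locus were close to 0 throughout. All 7 measured were above background on every array, and their differences ran from -0.06 to 0.02, CASP9 and CASP6 at -0.06 (SE 0.15) and -0.03 (SE 0.09) among them. Of 13 other genes with a CARD, 7 were higher and 6 lower, with a median of 0.06, CARD6 at 0.19 (SE 0.18) and CARD10 at -0.14 (SE 0.15). Of 7 genes further along chromosome 11 on either side, 3 were above background on all arrays. These were MSANTD4 with 0.18 (SE 0.19), AASDHPPT with 0.19 (SE 0.22) and KBTBD3, while GRIA4, PDGFD, DDI1 and the pseudogene CASP12 were above it on none. None of these lists had a member called.

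**Figure D4:**
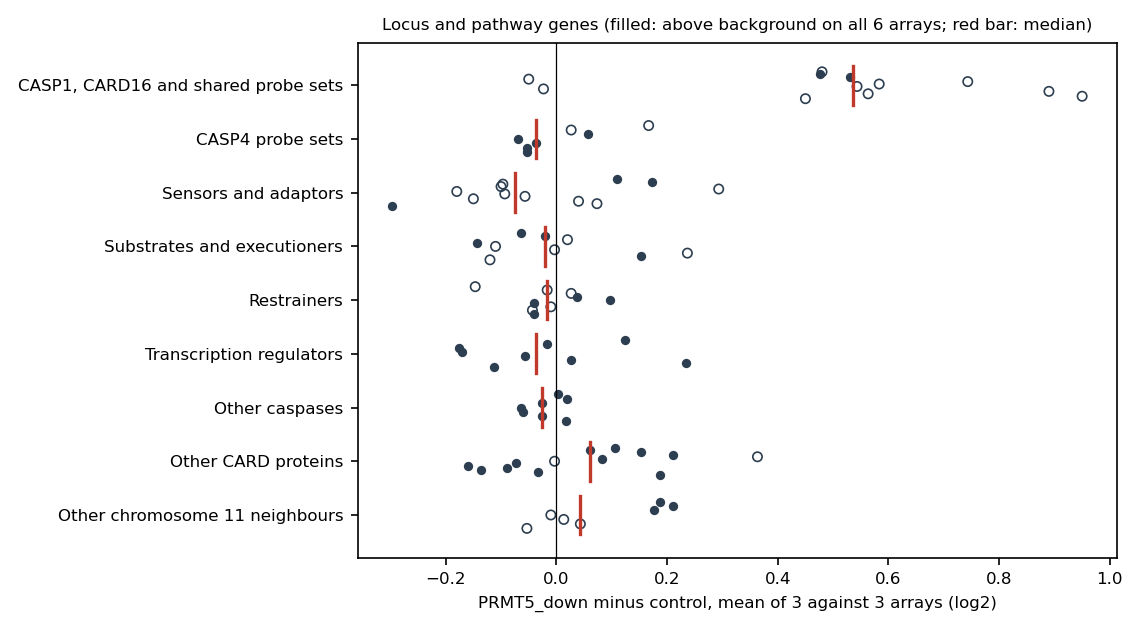
Mean PRMT5_down minus control difference (log2, 3 against 3 arrays) of the CASP1, CARD16 and shared probe sets, the CASP4 probe sets and each gene of the 7 pathway lists, filled where above background on all 6 arrays, with the median in red. The median is 0.54 for the first group and between -0.08 and 0.06 for the others.

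The genes most like the shared CASP1 and CARD16 probe set were found by the root mean square distance between their 6 mean-centred log2 signals and its own, among 24936 other probe sets above background on all 6 arrays. They were CNRIP1 at 0.12, TP53INP2 and GOLPH3L at 0.14, CREM at 0.14 and VWA5A at 0.15. In all 5, replicate 1 was the highest array of each group, as it was in the shared probe set (9.25 in PRMT5_down and 8.40 in the controls). This follows from choosing them by likeness and is not a separate observation. CNRIP1 differed by 0.94, 0.35 and 0.60 in replicate numbers 1, 2 and 3, and CREM, a cyclic AMP response regulator, by 0.63, -0.18 and 0.56. The bright CARD16 probe set ranked 94th at 0.22. The 5 bright CASP4 probe sets ranked between 18967 and 21437.

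The labelled cell type was checked against markers. Of 10 plasma cell markers SDC1, PRDM1 and XBP1 were above background on all 6 arrays, while CD38, TNFRSF17, IRF4, MZB1, POU2AF1 and IGKC were above it on none. All 7 measured erythroid markers, among them ALAS2, AHSP and GATA1, were above it on every array. The expression therefore lacks most of the plasma cell set and shows all of the measured erythroid set. These markers go against the labelled cell type, and the label is kept as given. Of 4 epithelial markers 3 were above background on all 6 arrays, as were 3 of 6 T and NK cell markers and 1 of 4 neutrophil markers. Of 10 monocyte and macrophage markers, the cells best known for CASP1, LYZ, CSF1R, CD68 and SPI1 were above background on all arrays, and CD14, ITGAM, FCGR3A, S100A8, S100A9 and MPO on none. Their summed signal was 9.48 to 10.15 (log2) in the controls and 9.58 to 10.11 in PRMT5_down, with differences of 0.10, 0.01 and -0.04 in replicate numbers 1, 2 and 3. The summed erythroid markers were higher by 0.39, 0.20 and 0.54, from 12.45 to 12.71 in the controls to 12.78 to 13.09 in PRMT5_down. Their part in the CASP1 and CARD16 differences was not tested.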

How the data were processed

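RNA of 6 arrays was compared, 3 PRMT5_down and 3 control. The authors deposited log2 signals of probe sets, made with RMA per the submitters' processing notes; its version and the chip definition are not given here. RMA evens out the arrays, which would hide a shift common to most genes. Values were used as deposited, with 2 decimals.

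Of 49372 probe sets, 79 controls were left out. The platform table gave 1 gene symbol for 44988, several for 1832 and none for 2473, with 44967 symbols updated by gene identifier. All 49293 were fitted together in limma 3.58.1 under R 4.3.3 (lmFit, eBayes), two-sided, with Benjamini-Hochberg adjustment at 0.05. Pathway genes were read by their brightest single-symbol probe set. The fit was tested on simulated data.

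Named were all locus probe sets, PRMT5, measured genes acting with, on or upstream of CASP1, from each list the 2 genes with the smallest p among those above background on all 6 arrays, and the 5 of most similar pattern. KBTBD3, APAF1 and the markers fall outside that rule. The members and lists were chosen with earlier results of these data known.

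Replicate numbers were checked by correlating each array's deviations from its group mean. Same-numbered arrays gave r = 0.81, 0.71 and 0.78, above the minimum of 0.1. Arrays of different numbers gave r below 0, which subtracting the group mean brings about on average once same-numbered arrays correlate. The pairing therefore rests on the r of same-numbered arrays alone, since no label tells what these arrays have in common. No replicate block is in the planned fit, and the blocked value is printed beside it for some probe sets and genes only. An SE without a setting is that of the planned fit. With the block it was often smaller, as for IL18 (0.10 against 0.30) and IRF2 (0.10 against 0.23). For CASP6 it was 0.09 in both fits. Alternatives were other normalization, filter, variance model, array weights, probe set choice, background percentile and left-out arrays.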

Additional observations from a re-analysis of the deposited data

How the results depend on the processing

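No locus probe set passed limma under any of the 17 other fits, and the CASP1, CARD16 and shared probe sets that were higher kept that direction, with 11732870_a_at from 0.64 to 1.40, 11736761_at from 0.24 to 0.68 and the shared one from 0.17 to 0.89. Over all probe sets 0 passed as planned, 6 with the replicate block, trend and robust variances and 3 with the replicate block and the lowest 50% left out. At an unadjusted p under 0.05 there were 466 as planned, 4221 with the replicate block, 80 with the lowest 50% left out, 149 with 1 probe set per gene, 4288 with block, trend and robust variances and 2591 with block and the lowest 50% left out. With the block and pair 1, 2 or 3 left out there were 1179, 4874 and 1862, and with 1 array left out 297 to 821. Of the locus probe sets 3 had such a p as planned, 10 with the replicate block, 5 with trend and robust variances, 1 with array weights, 10 with block, trend and robust variances, 11 with the block without pair 2, 2 with it without pair 1, 2 without pair 3, 2 with the block and the lowest 50% left out, and 0 of 7 fitted with the lowest 50% left out or of 6 fitted with 1 probe set per gene. With 1 array left out there were 1 to 10. PRMT5 passed only with the replicate block, trend and robust variances (-0.98, limma adjusted p = 0.036), and ran from -1.19 to -0.68 with 1 array left out.

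Differences near 0 changed sign. With array weights CASP4 was at 0.0445 (11748529_x_at), 0.0543 (11746002_a_at), 0.0749 (11716760_x_at), 0.0025 (11760222_x_at) and -0.0628 (11760221_at), CASP5 11753343_a_at at 0.0074 and CASP9 at 0.0138. With the block and without pair 1, the same first 4 CASP4 probe sets were at 0.07, 0.07, 0.105 and 0.02, CASP5 11753343_a_at at 0.025, NLRP3 at -0.025, CARD8 at 0.065, SERPINB1 at 0.035 and CASP6 at 0.005. Without pair 2, CASP1 11761103_a_at was at 0.06, CASP5 11731726_a_at at 0.025, CARD8 at 0.05 and CASP6 at 0.015. Without pair 3, CASP4 11716759_a_at was at -0.065, 11760221_at at -0.155 and SPI1 at 0.02.

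With 1 array left out, CASP1 11761103_a_at ran from -0.12 to 0.035. CASP4 ran from -0.1433 to 0.1217 (11748529_x_at), -0.1633 to 0.1517 (11746002_a_at), -0.1483 to 0.1667 (11716760_x_at), -0.1567 to 0.0733 (11760222_x_at), -0.11 to 0.28 (11716759_a_at) and -0.1783 to 0.1317 (11760221_at). CASP5 ran from -0.2267 to 0.0833 (11731726_a_at), -0.17 to 0.0233 (11753343_a_at) and -0.04 to 0.1533 (11731727_x_at). IL18 ran from -0.0433 to 0.4367, NLRP3 from -0.03 to 0.145, CARD8 from -0.1717 to 0.1233, IRF1 from -0.2433 to 0.04, SPI1 from -0.1333 to 0.0817, IFI16 from -0.0533 to 0.3217, SERPINB9 from -0.09 to 0.2967, SERPINB1 from -0.1233 to 0.0417, CASP9 from -0.155 to 0.0567 and CASP6 from -0.08 to 0.01. Without a change of sign, NLRP1 ran from -0.42 to -0.08, GSDMD from -0.2367 to -0.0067, PYCARD from -0.1817 to -0.0067 and IRF2 from 0.00 to 0.395. The cause of these shifts was not tested. Signal near background limits every CASP1, CASP5, CARD17P and CARD18 value. With 2 other background percentiles, 5 to 8 locus probe sets were above background on all 6 arrays, against 7 as planned.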

Other observations

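Among the other CARD proteins, APAF1 was picked after its values were seen. APAF1, which encodes the platform of the apoptosome that activates caspase-9, read 5.61, 5.34 and 5.37 in PRMT5_down against 5.26, 5.22 and 4.75 in the controls, for replicates 1 to 3. All 3 PRMT5_down arrays lay above all 3 controls, near background, with a log2 difference of 0.36 (SE 0.17). Control replicate 3 was below background and the other 5 arrays above it. Of 18132 genes, 229 were higher and 482 lower in PRMT5_down without overlap of the groups. APAF1 did not pass (limma adjusted p = 1 as planned, 0.50 with the replicate block), and the two-sided exact permutation test over arrays gave p = 0.1. CASP9 itself was at 8.54, 8.52 and 8.89 in the controls and 8.41, 8.58 and 8.77 in PRMT5_down, with overlapping groups.

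KBTBD3, a gene further along chromosome 11, varied more between replicate numbers than between groups. It read 7.21, 6.92 and 5.92 in the controls and 7.40, 7.01 and 6.27 in PRMT5_down. Its mean difference was 0.21 with an SE of 0.42 as planned and 0.09 with the replicate block (limma adjusted p = 0.57 with the block).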
